A study of Mus musculus with 36 samples.

Results

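The MSR-dCas9-Activator mouse embryonic fibroblasts (MEF cells) were profiled by total RNA sequencing at the end of doxycycline induction and again 3 h after doxycycline was removed, and the comparison of these time points is described here. It uses 6 of the 36 libraries of the time course, 3 induced and 3 at 3 h, and all gene and repeat entries of the count table. The line carries catalytically inactive Cas9 fused to the transcriptional activator VPR, expressed from a doxycycline-inducible promoter, with a guide RNA against the mouse major satellite repeat (MSR) made from the same PiggyBac plasmid. Cells were kept under hygromycin selection as a mixed culture, so the line is not a single clone. The induced group received 10 ng/ml doxycycline for 6 h and was collected at once. The 3 h group received the same induction and then fresh medium without doxycycline. Uninduced cells of the same line had no doxycycline, and further Activator groups were collected 6, 12 and 24 h after removal. The MSR-dCas9-Control line carries dCas9 with the same guide and no effector domain, received 10 ng/ml doxycycline for 24 h rather than 6 h, and was collected at the same 6 stages. Each of the 12 groups has 3 libraries, described in the methods as biological replicates.

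Major satellite repeats form the tandem arrays of pericentric heterochromatin in the mouse, and in interphase nuclei these arrays gather into DAPI-dense foci. They are normally packaged with trimethylated histone H3 lysine 9 and heterochromatin protein 1 and are transcribed at a low level. VPR joins 3 activation domains (VP64, p65 and Rta) that recruit coactivators to the place where dCas9 is bound. Removing doxycycline takes away the inducer but not the fusion protein already made. The paper reports a gradual decline of the protein after removal. Whether new fusion protein was still made during the 3 h was not tested here. The 3 h step thus asks which transcripts go on changing once the inducer is gone, not once the fusion protein is gone.

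The 6 libraries held between 47724807 and 68875383 counts on genes and repeats, within the 35092024 to 71148411 of all 36. Of 54842 genes, 28542 had enough counts to be tested, and 13582 of these had a mean above 100 normalised counts over the 36 libraries. Normalised counts are scaled to library size with TMM factors computed on genes. Replicates differed from each other by more than sampling noise in every pair. Induced replicate 2 stood apart from the other induced libraries, with weaker induction of most of the genes described below. The numbers of genes called, and some single genes and repeats, are given with and without it. Counts by gene type, neighbourhood and pathway list are given only with it. The 14 tested fibroblast markers summed to between 1061998 and 1233602 normalised counts in the induced libraries and between 1060818 and 1283650 at 3 h, by far the highest of the marker lists at both times. The 8 macrophage markers (6 tested) summed to 558 to 862 and then 936 to 1057, with Csf1r the member that passed the test (log2 fold change 0.47, adjusted p = 0.0116). The 8 endothelial markers (7 tested) summed to 624 to 1516 and then 1339 to 1876. In the 6 libraries the keratinocyte, skeletal muscle, hepatocyte and erythroid lists reached at most 135, 483, 1167 and 807 in sum, with 1 keratinocyte and 2 erythroid markers at 0 in all 6, and the neuronal list summed to 1943 to 2518. Their part in the results was not tested, and in bulk RNA a change in the number of cells of a kind cannot be told apart from a change in RNA per cell.

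Between the end of induction and 3 h after removal, 110 genes rose and 63 fell at least 2-fold in the Activator line. These are 0.81% and 0.464% of the 13582 genes with a mean above 100, called by edgeR's quasi-likelihood test at an adjusted p under 0.05. Without the limit on the mean, 1118 genes rose and 221 fell at least 2-fold, so most of the rises lay in genes of low counts that are not described here. Without the limit on the fold change the balance turned, with 319 genes higher (2.35%) and 1270 lower (9.35%), so that the falls were more numerous but mostly smaller than 2-fold. The median log2 fold change of the 13582 genes was -0.06. The median of the means over 36 libraries was 172 normalised counts for the risers, 239 for the fallers and 1009 for all 13582 genes. Without the replicate number as a block in the model, 54 genes rose and 24 fell. Without induced replicate 2, 57 rose and 12 fell, and 55 and 10 of these were among the 110 and the 63. How far the gene type, neighbourhood and list counts below rest on that library is not given.

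The split between rises and falls depended on the scaling. With rises as a share of all 2-fold calls, 63.6% were rises here, 53.3% with DESeq2 (98 higher, 86 lower), 76.5% with DESeq2 size factors (124 higher, 38 lower), 50% without TMM (94 and 94) and 88.6% when libraries were scaled to mitochondrial mRNAs (70 and 9). When the model was fitted to the 6 libraries alone, 66 genes rose and 74 fell. No gene called here was called in the opposite direction under any of the alternatives run.

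**Figure D1:**
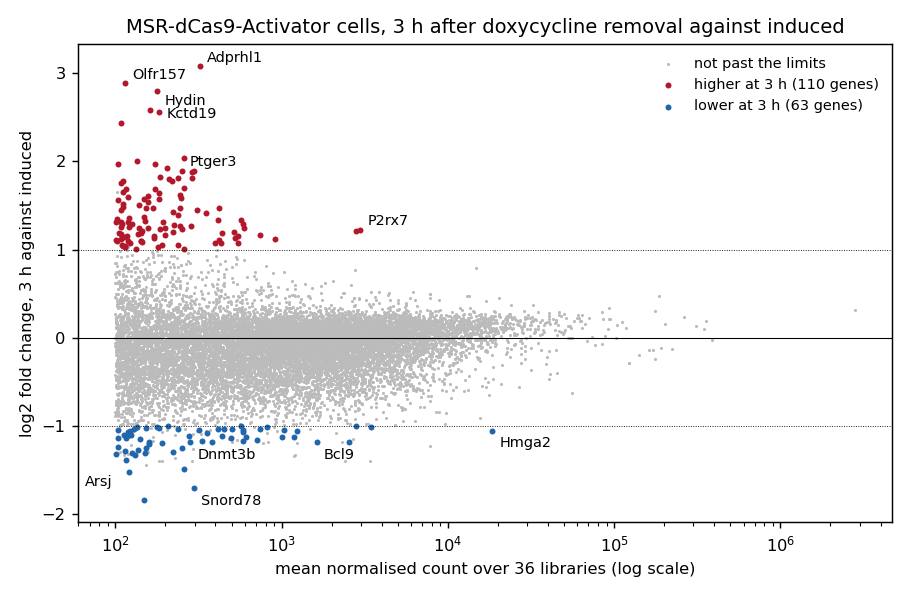
Log2 fold change from induced to 3 h after doxycycline removal (y axis) against the mean normalised count over 36 libraries (x axis, log scale) for the 13582 genes with a mean above 100 in the Activator line. The 110 genes that rose (red) lie mostly at the low end of expression, and the 63 that fell (blue) reach from low levels up to Hmga2; dotted lines mark a log2 fold change of 1 and -1.

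The largest rise among genes with a mean above 100 was in Adprhl1 (ENSMUSG00000031448), an ADP-ribosylhydrolase-like gene best known from heart muscle. The GENCODE annotation of GRCm38 places it on the minus strand at chr8:13221663-13254162. Its normalised counts were 1.75, 1.97 and 0 in the uninduced replicates 1, 2 and 3, 63.3, 19.5 and 73.7 in the induced ones and 572, 259 and 466 at 3 h. The gene was all but silent before induction, low after 6 h of doxycycline and 8.47-fold higher 3 h later (log2 fold change 3.08 ± 0.26 (SE), adjusted p = 2.06e-08), with no overlap between the groups. The promoter window of Adprhl1, from 250 bases before to 50 bases after its start in RefSeq (GRCm38.p6), is printed below. It was chosen because none of the 13582 genes with a mean above 100 rose more. The window of Sephs2, a falling gene described further on, is printed beside it. Both are written 5′ to 3′ on the minus strand, on which the genes lie, and CG dinucleotides are in capitals.
Adprhl1, chr8:13254113-13254412: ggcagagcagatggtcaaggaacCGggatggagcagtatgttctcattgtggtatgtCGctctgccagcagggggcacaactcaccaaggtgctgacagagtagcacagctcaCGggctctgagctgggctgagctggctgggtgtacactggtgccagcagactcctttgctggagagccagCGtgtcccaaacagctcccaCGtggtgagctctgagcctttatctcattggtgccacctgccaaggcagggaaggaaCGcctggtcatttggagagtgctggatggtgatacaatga
Sephs2, chr7:127274010-127274309: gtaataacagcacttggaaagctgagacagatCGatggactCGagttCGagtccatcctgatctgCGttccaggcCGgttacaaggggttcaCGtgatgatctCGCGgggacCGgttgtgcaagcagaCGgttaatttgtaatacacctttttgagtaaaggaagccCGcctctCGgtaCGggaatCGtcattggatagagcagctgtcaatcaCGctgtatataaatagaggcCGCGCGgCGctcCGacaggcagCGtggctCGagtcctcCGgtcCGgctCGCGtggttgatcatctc
The Adprhl1 window holds 6 CG dinucleotides and the Sephs2 window 26. The median over the windows of 27025 genes was 7, and 94.2% of all windows hold at least 1. The Adprhl1 window had more CG than 43.6% of windows and the Sephs2 window more than 83.2%.

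Several of the other large rises were also in genes that fibroblasts hardly express. Hydin, which encodes a protein of the central pair of motile cilia, had 1.75, 0.986 and 0 normalised counts uninduced, 66.6, 22.7 and 66.1 induced and 502, 205 and 375 at 3 h (log2 fold change 2.80 ± 0.31 (SE), adjusted p = 4.71e-06). The 3 h libraries all lay above the induced ones. Olfr157, an olfactory receptor gene, was at 0 in all 3 uninduced libraries, at 21.1, 6.49 and 36.4 after induction and at 198, 115 and 141 at 3 h (log2 fold change 2.89). Xylt1, which starts glycosaminoglycan chains on proteoglycans, was likewise at 0 uninduced and moved from 43.8, 5.41 and 52.5 to 280.1, 90.5 and 165 (log2 fold change 2.44). In all of these genes induced replicate 2 was the lowest of the induced libraries.

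Ptger3, the EP3 receptor for prostaglandin E2, was at 0.877, 0.986 and 0 uninduced, 244, 48.7 and 368 induced and 811, 516 and 807 at 3 h (log2 fold change 1.89 ± 0.31 (SE), adjusted p = 0.00158). Hc, the gene of complement component C5, moved from 191, 42.2 and 264 to 675, 418 and 545 (log2 fold change 1.83). Sec14l5, a gene of the Sec14 family of lipid-binding proteins, moved from 77.1, 40.0 and 94.9 to 345, 243 and 228 (log2 fold change 1.96). These genes shared the pattern of the first ones, near silence before induction and separated groups afterwards. Among genes without a descriptive name, 2810030D12Rik rose with a log2 fold change of 2.58, AC154187.1 of 2.04 and Gm32479 of 2.00.

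Plekhg4, which encodes a guanine nucleotide exchange factor, had a different course. It was at 64.9, 99.6 and 88.6 before induction, no higher at 62.5, 60.6 and 72.0 at its end, and at 279, 189.6 and 272 3 h later (log2 fold change 1.92 ± 0.22 (SE), adjusted p = 4.71e-06). Its rise began after doxycycline was removed and went on, to means of 449 at 6 h and 701 at 12 h. P2rx7, the ATP-gated P2X7 channel, was chosen after its values were seen because its level was higher at each later stage: 220.2, 375 and 272 uninduced, 479.7, 508 and 441 induced, 1169, 1185 and 979.6 at 3 h (log2 fold change 1.22 ± 0.18 (SE), adjusted p = 3.41e-04) and means of 3009.6, 11070.2 and 18335 at 6, 12 and 24 h.

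**Figure D2:**
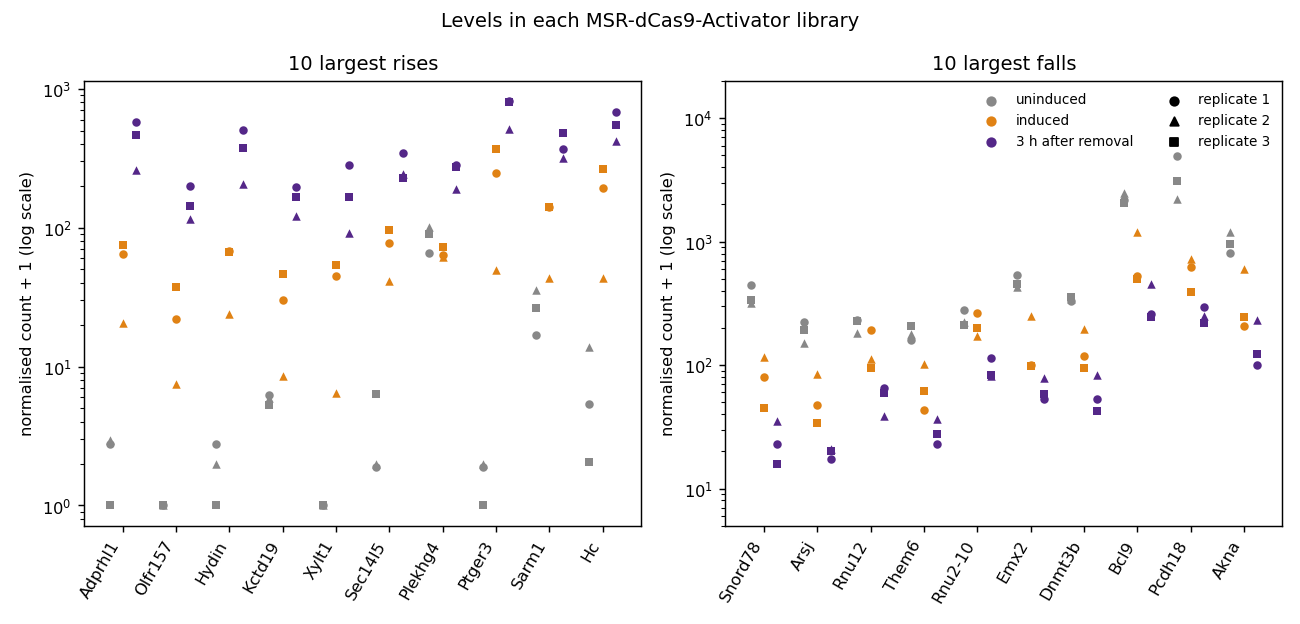
Normalised counts plus 1 (y axis, log scale) of the 10 genes with the largest rises and the 10 with the largest falls, numbered symbols such as Gm42675 left out. Each uninduced (grey), induced (orange) and 3 h (purple) library of the Activator line is shown, with the replicate given by the symbol. Among the rises all 3 h symbols lie above all induced symbols and the triangle of induced replicate 2 is the lowest orange symbol; among the falls the 3 h symbols lie below the induced ones except in Akna, and the uninduced symbols lie above the induced ones except in Rnu12 and Rnu2-10, where they overlap.

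Of the 110 rising genes, 81 are annotated as protein coding (73.6%, against 83.4% of the 13582 genes). Before induction 52 of them had a mean below 10 normalised counts (47.3%, against 1.16% of the 13582). A gene that low passes the limit on the mean over 36 libraries only through high values in other groups. The limit thus shaped both shares, which describe the genes it kept and not silent genes in general. Their median level was 11.3 uninduced, 121 induced and 311 at 3 h, while in the Control line it was between 7.77 and 12.1 in all 6 groups. For 106 of the 110 the 3 h libraries all lay above the induced ones, which 7.21% of the 13582 genes did. The background counts every gene, whereas the 110 were called on the same libraries, so this share describes the calls and adds no support to them. Induced replicate 2 was the lowest induced library for 103 of the 110. Taken pair by pair, the median log2 change of the 110 was 1.28 between the libraries numbered 1, 2.27 between those numbered 2 and 0.83 between those numbered 3.

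Many of the rising genes lay side by side. Of the 110, 37 had another riser within 100 kb (33.6%), against 3.33% of the 13582 genes with a riser that near. Plekhg4, Kctd19 and Lrrc36 follow each other between positions 105373274 and 105464086 of chromosome 8. Kctd19, known for its role in male meiosis, moved from 29.2, 7.57 and 45.7 to 193, 121 and 166 (log2 fold change 2.55 ± 0.29 (SE), adjusted p = 4.71e-06), and Lrrc36 from 143, 55.2 and 211 to 538, 385 and 419 (adjusted p = 3.82e-04). The starts of Kctd19 and Lrrc36 are 69 bases apart on opposite strands. The 3′ ends of Plekhg4 and Kctd19 overlap, and the strand setting used for counting is not given in the sources used here, so reads from the overlap could not be assigned with certainty.

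A group of 4 lay on chromosome 11 between 78465697 and 78505081. It holds Slc46a1, a folate transporter, Sarm1, the NAD-cleaving enzyme of axon degeneration, Vtn, which encodes the adhesive protein vitronectin, and Sebox, a homeobox gene. Sarm1 moved from 139.6, 42.2 and 139.7 to 368, 315 and 476 (log2 fold change 1.88 ± 0.37 (SE), adjusted p = 0.00277). Vtn went from 107, 44.4 and 171 to 285, 226 and 287 and Sebox from 114, 68.2 and 158 to 288, 239 and 293. Slc46a1 resembled Plekhg4 in that it was as high uninduced, at 126, 166 and 136, as induced, at 124, 129.8 and 120.3, and then reached 333, 258 and 313 (log2 fold change 1.27 ± 0.19 (SE), adjusted p = 2.42e-04). Abcg5 and Abcg8, whose products form the sterol exporter of liver and intestine, lie on chromosome 17 between 84658234 and 84700333 and overlap at their ends. Abcg5 moved from 101, 27.0 and 115 to 306, 195 and 222 and Abcg8 from 218, 48.7 and 249.8 to 553, 432 and 449. On chromosome 8, 2810030D12Rik lies beside Adprhl1, the gene with the largest rise.

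By GENCODE, the noncoding gene 1700121C08Rik and the coding gene 4933427I04Rik start 166 bases apart on opposite strands of chromosome 4. The first moved from 112, 48.7 and 124 to 224, 197 and 159 and the second from 157, 145 and 271 to 388, 467 and 320.2 (log2 fold changes 1.04 and 1.05). 1700121C08Rik has 2 RefSeq windows, the first of them at 123857031-123857330, away from its GENCODE start. The RefSeq window of 4933427I04Rik, on the plus strand of GRCm38.p6 with CG in capitals, is shown because it spans the GENCODE starts of both genes.
4933427I04Rik, chr4:123859410-123859709: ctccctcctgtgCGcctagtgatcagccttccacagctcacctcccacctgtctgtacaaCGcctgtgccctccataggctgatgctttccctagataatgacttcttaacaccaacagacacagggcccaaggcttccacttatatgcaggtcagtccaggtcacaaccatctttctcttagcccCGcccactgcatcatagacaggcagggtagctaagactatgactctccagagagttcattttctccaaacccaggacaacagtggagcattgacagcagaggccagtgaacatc
It holds 3 CG dinucleotides, more than 23.8% of all windows. Among called genes 2 pairs that start within 1000 bases of each other on opposite strands rose together. By the same limit 1 pair, Sephs2 with Gm44729, fell together, though these entries overlap at their starts. The share of such pairs among all genes was not counted.

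The 63 falling genes were expressed in uninduced fibroblasts and, taken by their median, were already lower at the end of induction. Their median level was 328 uninduced, 119 induced and 53.2 at 3 h, and 0 of the 63 were below 10 normalised counts before induction. Of the 63, 30 are protein coding, 8 are small nucleolar RNAs, 3 are small nuclear RNAs and 15 are of the GENCODE class TEC, transcribed regions that still await an experimental check. For 43 of the 63 the 3 h libraries all lay below the induced ones, which 14.5% of the 13582 genes did. The 63 were called on these same libraries, so this too describes the calls and adds no support to them. Induced replicate 2 was the highest induced library for 53 of the 63, as for 6718 of the 13582 genes. Counted separately, 3 h replicate 2 was the highest 3 h library for 53 of the 63, as for 6460 of the 13582. The pair medians were nevertheless alike, at -1.08, -1.17 and -1.11.

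Dnmt3b, the de novo DNA methyltransferase that also acts on satellite DNA, had 327, 340.1 and 353 normalised counts uninduced, 118, 196 and 94.0 induced and 52.6, 82.6 and 41.3 at 3 h. It fell a further 2.27-fold in the 3 h without doxycycline (log2 fold change -1.19 ± 0.23 (SE), adjusted p = 0.00213), and the groups did not overlap. Dnmt3b kept its direction under every alternative, with an adjusted p of 0.0522 when scaled to mitochondrial mRNAs, and without induced replicate 2 its log2 fold change was -0.94, short of 2-fold (adjusted p = 0.0313). Cbx7, a chromodomain subunit of Polycomb repressive complex 1, moved from 42.2, 83.3 and 37.3 to 24.3, 33.9 and 13.8 (log2 fold change -1.13 ± 0.29 (SE), adjusted p = 0.0143). Kmt5c, which trimethylates histone H4 lysine 20 in pericentric heterochromatin, moved from 203, 559 and 261 to 108, 267 and 92.2. Setd1b, a histone H3 lysine 4 methyltransferase, moved from 1214, 2344 and 1147 to 639, 1189.8 and 509. Both were chosen after their values were seen, and their groups overlapped through the libraries numbered 2.

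Emx2, a homeobox gene, moved from 540.4, 426 and 453 uninduced through 99.0, 248 and 96.5 to 52.6, 78.3 and 57.2 (log2 fold change -1.19 ± 0.32 (SE), adjusted p = 0.0196). Bcl9, a cofactor of beta-catenin, moved from 2171, 2478 and 2044 through 527, 1190.1 and 496 to 257, 451 and 243, and Pcdh18, a protocadherin, from 4911, 2214 and 3105 through 625, 728 and 388 to 296, 250.5 and 219. The order of the 3 stages was the same in each of these genes. Atoh8, a basic helix-loop-helix factor, moved from 213, 343 and 153 to 74.5, 168 and 111, and Nfil3, a basic leucine zipper repressor of the circadian system, from 127, 251 and 88.9 to 62.3, 94.8 and 64.7. In both the highest 3 h library lay within the induced range. The calls of Cbx7, Emx2, Bcl9, Pcdh18, Atoh8 and Nfil3 were lost without induced replicate 2. They were also lost when scaled to mitochondrial mRNAs, without 3 h replicate 1 and without 3 h replicate 3. Of 14 alternatives, Nfil3 lost its call in 10, Atoh8 and Pcdh18 in 8, Cbx7 in 7 and Emx2 and Bcl9 in 6.

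Arsj, an arylsulfatase gene, moved from 223, 149 and 191 through 46.3, 83.3 and 33.0 to between 16.2 and 20 (log2 fold change -1.52 ± 0.34 (SE), adjusted p = 0.00688). Them6 moved from 42.2, 101 and 61.0 to 21.9, 35.7 and 26.5 and Akna, which encodes an AT-hook protein, from 205, 604 and 244 to 98.8, 232 and 123. Arsj, Them6 and Akna lost their calls without induced replicate 2 as well. Of 14 alternatives, Them6 lost its call in 9, Akna in 7 and Arsj in 2. Hmga2, an AT-hook chromatin protein of embryonic and mesenchymal cells, was the most abundant falling gene and was chosen after its values were seen. It moved from 15664, 10241 and 10964 uninduced through 11652, 7034 and 7561 to 5833, 3042 and 3763 (log2 fold change -1.06 ± 0.30 (SE), adjusted p = 0.0262). Sephs2, selenophosphate synthetase 2, moved from 571, 911 and 461 to 275, 361 and 239 (log2 fold change -1.13 ± 0.15 (SE), adjusted p = 5.55e-05), and Gm44729, an entry that overlaps its start on the other strand, from 99.0, 191 and 102 to 38.0, 81.8 and 50.9.

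Small noncoding RNAs formed a further group of falls. Of 64 small nucleolar RNA genes with a mean above 100, 8 fell 2-fold and 0 rose, and of 17 small nuclear RNA genes 3 fell 2-fold and 0 rose, where 0.464% of all 13582 genes fell and 0.81% rose. The median log2 fold change was -0.23 over the 64 and 0.04 over the 17. Snord78 moved from 441, 315 and 336 uninduced through 78.7, 115 and 44.0 to 21.9, 33.9 and 14.8 (log2 fold change -1.71 ± 0.35 (SE), adjusted p = 0.00361). It lies on the plus strand at chr1:161036984-161037049 with Snord80 and Gm23212, which were called lower too, in the introns of the host gene Gas5. Gm24452 and Gm22744, also among the 8, lie side by side on chromosome 19, so the 8 falls are not independent of each other. Reads of a small nucleolar RNA and of the intron around it cannot be told apart in these counts. Rnu12, the U12 RNA of the minor spliceosome, moved from 192, 110.4 and 94.0 to 64.0, 37.4 and 58.3 (log2 fold change -1.30 ± 0.25 (SE), adjusted p = 0.00216). Rnu2-10, a copy of the U2 RNA, moved from 264, 172 and 197 to 113, 80.0 and 81.6 (log2 fold change -1.21 ± 0.22 (SE), adjusted p = 0.00136), having been at 278, 222 and 209 uninduced. As shares of all gene and repeat counts, small nucleolar RNAs took 0.0429% at the end of induction and 0.0399% at 3 h on average (two-sided exact permutation test, p = 0.8).

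Of the 487 entries of the class TEC, 15 fell and 2 rose by 2-fold, beside the same 0.464% and 0.81% of all genes, with a median of -0.39. Gm42675 had the largest fall of the 13582 genes with a mean above 100, from 31.7, 92.0 and 29.6 to 8.10, 26.1 and 6.36 (log2 fold change -1.84). Its call was lost in 8 of 14 alternatives. C130023A14Rik moved from 70.6, 154 and 52.5 to 33.2, 43.5 and 17.0 (log2 fold change -1.49 ± 0.29 (SE), adjusted p = 0.00242) and Gm38104 from 55.2, 64.9 and 40.7 to 16.2, 33.1 and 12.7. C130023A14Rik lies on chromosome 16 with 3 other falling entries between 77616311 and 77687409. Of the 63 falling genes, 11 had another faller within 100 kb (17.5%, against 1.71% of the 13582). Processed pseudogenes went the other way, with a median of 0.19 over 333 entries, 7 of them called higher and 0 lower, beside 0.81% and 0.464% of all genes. Reads that match a pseudogene and its parent gene equally could be split by the counting.

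The course after 3 h is given as a description, against uninduced cells, because the limit on the mean over 36 libraries counts the 6, 12 and 24 h libraries too: a gene near 0 elsewhere, such as Olfr157, passed it through its high later levels. All 110 risers were called higher than uninduced at 6 h, 108 at 12 h and 107 at 24 h, where 7.28%, 8.22% and 6.78% of the 13582 genes were called higher. Their median level was 445 at 6 h, 630 at 12 h and 392 at 24 h. The highest group mean was at 12 h for 81 of the 110, at 6 h for 25 and at 24 h for 4. The limit on the mean favours risers of low baseline with high later levels, so these counts do not describe the genes it left out. Adprhl1, for example, had means of 928, 1639 and 789 at 6, 12 and 24 h, and Kctd19, whose highest mean was at 24 h, 291, 734 and 960.1. Ptger3 and Hc were past their highest means by 12 h, at 822 and 585 after 939 and 642 at 6 h.

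All 63 fallers were called lower than uninduced at 6 h and again at 12 h, and 24 at 24 h, where 22%, 22.6% and 7.38% of the 13582 genes were called lower. Their median level was 63.3 at 6 h, 73.1 at 12 h and 169 at 24 h, against 328 in uninduced cells. The lowest mean was at 3 h for 46 of the 63, though the 3 h values had been used to choose them. Dnmt3b had means of 69.7, 92.1 and 225 at 6, 12 and 24 h, and Cbx7 29.3, 43.8 and 113. Hmga2 went on falling, to 2645 at 6 h and 2588 at 12 h, before it reached 10686 at 24 h. The U2 copy Rnu2-10 also reached its lowest means after 3 h, 55.4 and 55.4 at 6 and 12 h.

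**Figure D3:**
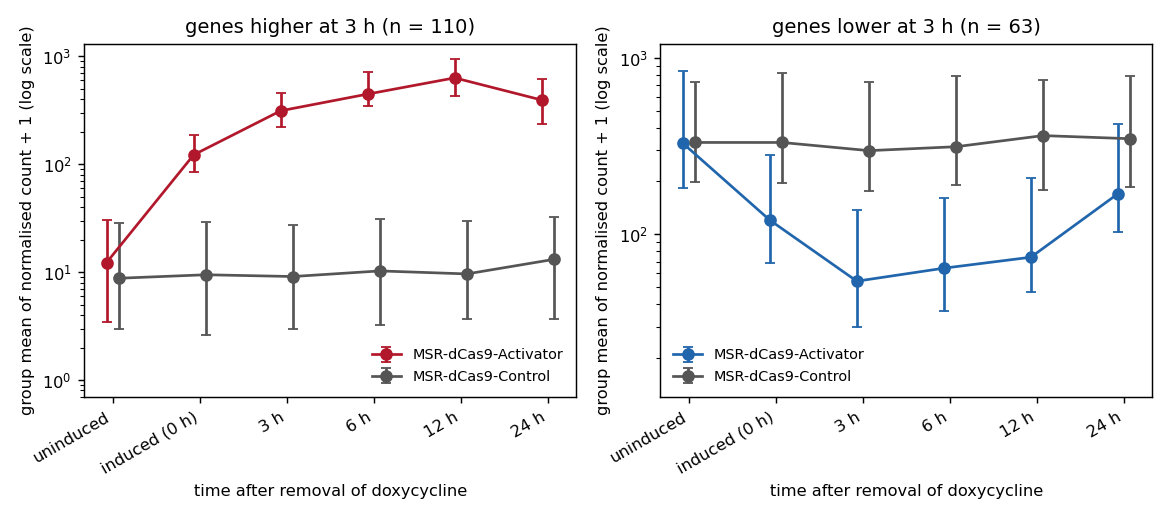
Median over genes of the group mean of normalised counts plus 1 (y axis, log scale) for the 110 genes that rose (left) and the 63 that fell (right) at 3 h, by time after doxycycline removal (x axis), in the Activator line (coloured) and the Control line (grey); bars span the middle 50% of genes. The risers go from 121 induced to 630 at 12 h and the fallers from 119 induced to 53.2 at 3 h and back to 169 at 24 h, while the Control medians stay near the uninduced levels.

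Pathway lists were read by counts and medians beside those of all 13582 genes, of which 2.35% rose and 9.35% fell by adjusted p alone. Genes of DNA break repair held the highest share of falls among the lists with at least 10 such genes, with 19 of 45 lower (42.2%) and 0 higher. The falls were small: Brca1 changed by -0.39 on the log2 scale, Atm by -0.31, the ubiquitin ligase Rnf168 by -0.64, the polymerase Polq by -0.64 and Fancf, of the Fanconi anaemia core complex, by -0.93. The list median was -0.22 in the Activator line and -0.07 in the Control line.

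Genes that write or read repressive chromatin held more falls than rises, as did all 13582 genes (9.35% lower, 2.35% higher). Of 38 heterochromatin genes, 8 were lower (21.1%) and 0 higher, and the 3 falls of 2-fold were Dnmt3b, Kmt5c and Hmga2. Setdb1, a histone H3 lysine 9 methyltransferase, changed by -0.59 (adjusted p = 0.0122), and the list median was -0.13, beside -0.06 for all genes. Of 32 Polycomb genes, 7 were lower (21.9%) and 0 higher, with Cbx8 at -0.70 and Pcgf2 at -0.62 beside Cbx7. All 11 Hox genes with a mean above 100, classical targets of Polycomb, had negative values, where 5483 of the 13582 genes had positive ones. Of the 11, 4 passed the test as falls (36.4%). Among these, Hoxb3 changed by -0.68, Hoxc13 by -0.87 and Hoxa3 by -1.0. The Hox median was -0.65 in the Activator line and -0.19 in the Control line.

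Replication-dependent histone genes had negative values in 43 of 47 members, with a median of -0.41 (Control -0.08). Of all 13582 genes, 5483 had positive values. Of the 47, 5 passed the test as falls and 0 as rises, a share of 10.6%, near the 9.35% of all genes. Hist1h1b changed by -0.59 and Hist1h2bh by -0.93. The mitotic list held 11 falls (20%) and 1 rise (1.82%) among 55 members around a median of 0.04 whose sign turned with the scaling. Ccnf, the cyclin F subunit of a ubiquitin ligase, moved from 3088, 2859 and 2949 to 1717, 1859.5 and 1634 (log2 fold change -0.77 ± 0.07 (SE), adjusted p = 1.83e-07), and the separase gene Espl1, the centromere gene Cenpc1 and the cohesin protector Sgo2a changed by -0.60, -0.69 and -0.68. The rise was in Fam83d, at 0.30.

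Of 25 targets of p53, 5 were lower (20%) and 1 higher (4%), beside 9.35% and 2.35% of all genes. The lower ones were the repair genes Ddb2 and Xpc, the apoptosis genes Apaf1 and Pidd1 and the metabolic regulator Tigar, between -0.49 and -0.92, and the higher one was the long noncoding RNA Trp53cor1 at 0.88. Of 33 apoptosis regulators, 4 were lower and 0 higher, among them Birc2, an inhibitor of apoptosis, at -0.72. Their share of falls, 12.1%, was near that of all genes. Nuclear long noncoding RNAs held 4 falls (17.4%) and 0 rises among 23, with Ftx of the X inactivation centre at -0.80 and Kcnq1ot1 at -0.59. RNA decay genes held 5 falls (14.7%) and 0 rises among 34. TGF-beta and BMP targets held 3 falls (15%) and 0 rises among 20, namely Ski, Tgif1 and Atoh8. The 28 mesenchymal transcription factors had a median of -0.39 with 0 members past the test in either direction.

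Lists of protein synthesis and energy metabolism leaned upward without any member passing the test. Where 5483 of all 13582 genes had positive values, cytosolic ribosomal protein genes had them in 78 of 79 members, with a median of 0.19 (Control 0.08). Nuclear-encoded respiratory chain genes had them in 69 of 76, with a median of 0.16 (Control 0.05). Neither median changed sign with the scaling. The 40 immediate early genes had 0 members past the test and a median of -0.02 in the Activator line. In the Control line 1 member passed as a rise and the median was 0.37. NF-kappaB targets likewise had 0 of 25 past the test and a median of -0.22, against 1 rise and 0.39 in the Control line. DNA replication genes had 5 falls (9.62%) and 0 rises among 52 around a median of 0.05. Integrated stress response genes had 3 falls among 27 (11.1%), Chac1 the largest at -0.99. Both shares were near the 9.35% of all genes. Collagen, contractile and sterol synthesis genes and mitochondrially encoded mRNAs had 0 members past the test. Interferon-stimulated genes and hypoxia genes had 1 rise each, Ifi35 at 0.41 and Pfkp at 0.39.

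The Control line went through the same change of medium with few changes at 3 h. By the same limits 10 genes were higher (0.0736%) and 0 lower (0%), with 2011 genes at an unadjusted p under 0.05 against 7501 in the Activator line, and DESeq2 gave 18 higher and 1 lower. No riser of the Activator line was called in the Control line, and the median Control change of the 110 risers was -0.07. The test of the difference itself, Activator change minus Control change, called 18 genes higher (0.133%) and 24 lower (0.177%). Of the 110 risers 10 and of the 63 fallers 5 were among them. These counts rested on single Control libraries: without Control induced replicate 2 they were 3 and 6, and without Control 3 h replicate 3 they were 3 and 5. For genes near 0 in the Control line, such as Adprhl1, the difference had a wide error (2.44 ± 1.10 (SE), adjusted p = 0.34), so a missing call there does not show that the lines acted alike. The lines also differed in the length of induction, 6 h against 24 h, which cannot be told apart from the effect of VPR in this test.

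Plekhg4 changed by -0.43 ± 0.24 (SE) in the Control line, where its means were 65.0 ± 7.72 (SD, n = 3) induced and 48.7 ± 3.65 at 3 h, and the difference between the lines was 2.35 ± 0.32 (SE), adjusted p = 0.00124. The difference was 4.57 ± 0.90 (SE), adjusted p = 0.0244 for Hydin, with Control means of 6.02 and 1.97, and -1.89 ± 0.44 (SE), adjusted p = 0.0457 for Arsj. Chosen after their values were seen, Sephs2 differed by -1.27 ± 0.20 (SE), adjusted p = 0.00313, Errfi1 by -1.53 ± 0.22 (SE), adjusted p = 0.00183 and Tnfaip2 by -1.86 ± 0.30 (SE), adjusted p = 0.00313. These differences had unlike sources. Sephs2 fell in the Activator line and stood at 1350.4 ± 125 and 1484 ± 46.1 in the Control line. Errfi1, a feedback inhibitor of the EGF receptor, rose in the Control line from 1074 ± 83.6 to 2885 ± 663, while the Activator libraries held 476, 562 and 436 induced and 459, 404 and 507 at 3 h. Tnfaip2, an NF-kappaB target, rose in the Control line from 313 ± 53.4 to 929 ± 32.2 and was at 172, 241 and 139 and 147, 184 and 114 in the Activator line. Of the 10 genes called in the Control line, Olr1, Ier3, Sdc4 and 1700006J14Rik also differed between the lines in this way.

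**Figure D4:**
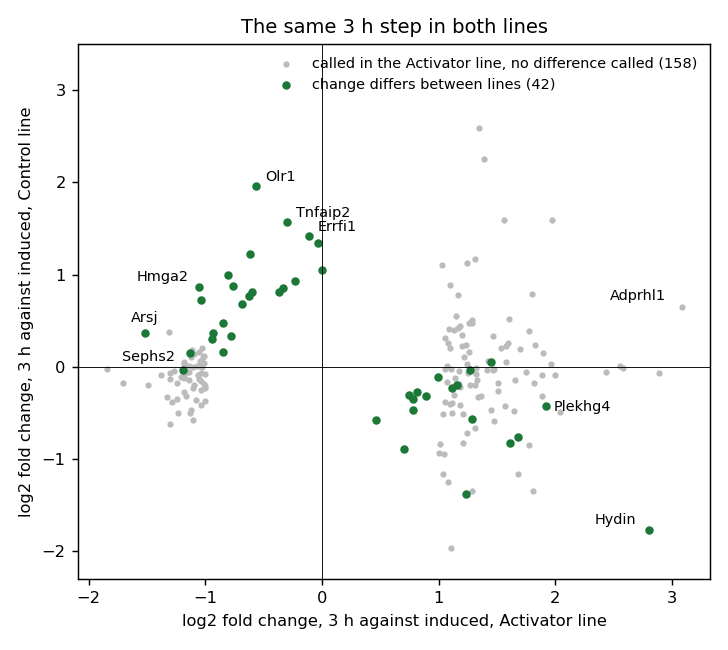
Log2 fold change from induced to 3 h in the Activator line (x axis) against the same step in the Control line (y axis) for genes called in the Activator line or in the test of the difference. The 42 genes in green differ between the lines, 18 with a higher change in the Activator line and 24 with a lower one, some by falling in the Activator line and others, such as Errfi1 and Tnfaip2, by rising in the Control line.

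Among 1492 repeat families tested, 5 rose (0.335%) and 1 fell (0.067%) past an adjusted p of 0.05 and a log2 fold change of 0.5. GSAT_MM, the major satellite that the guide targets, did not give a change that could be told from the spread between replicates. It was at 4168, 2200.1 and 3790.2 normalised counts uninduced, 149207, 97607 and 1043478 induced and 170365, 451496 and 849554 at 3 h (log2 fold change 0.38 ± 0.62 (SE), adjusted p = 0.882). Every induced and 3 h library was far above every uninduced one, but the 3 replicates of each time spanned several-fold and overlapped. Without induced replicate 2 the sign turned, to -0.084. SYNREP_MM, the minor satellite of the centromere, was at 675, 388 and 425 uninduced, 21870.2, 14129 and 21079 induced and 46586, 31339 and 45431 at 3 h (log2 fold change 1.12 ± 0.32 (SE), adjusted p = 0.12). In each same-numbered pair the 3 h library was over 2-fold higher and the groups did not overlap, yet the adjusted p missed the threshold. It was 2.89e-04 when scaled to mitochondrial mRNAs and 0.0181 with the 6 libraries alone, at almost the same fold change.

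The families that rose were 1 tRNA family, tRNA-Leu-CTA_, with a log2 fold change of 1.36 at a mean of 54.1 normalised counts, and 4 families of long terminal repeats (LTRs), the flanks of retrovirus-like elements. MamGypLTR1d moved from 141, 45.4 and 151 to 266, 198 and 194 (log2 fold change 1.01 ± 0.22 (SE), adjusted p = 0.00655), LTR81C changed by 0.86, RLTR51B_Mm by 0.80 and MamGypLTR2b by 0.71. Of these, 3 are remnants of Gypsy elements, and all 14 Gypsy families had positive values, with a median of 0.46 (Control -0.06). Of the 14, 8 were higher at an unadjusted p under 0.05, as were 9.12% of all 1492 families. LTR families as a class, Gypsy included, leaned upward too, with 521 of 662 positive and a median of 0.13. At the same unadjusted p, 82 of the 662 were higher and 4 lower. Among ERVK families 225 of 279 were positive, with a median of 0.14. Of the 4 LTR families that rose, RLTR51B_Mm was the abundant one, at 1195, 868 and 1416 induced and 2302, 1727 and 1978 at 3 h. MER72B, an LTR of the ERV1 group, fell from 23.5, 51.9 and 39.0 to 11.3, 21.7 and 13.8 (log2 fold change -1.25 ± 0.32 (SE), adjusted p = 0.0439). Leaving out 1 library moved these counts widely, to 0 families without 3 h replicate 1 and to 59 higher and 5 lower without induced replicate 3. Without the replicate block 0 families were called in either direction, against 5 higher and 1 lower with it. At an unadjusted p under 0.05, with the block, 136 families (9.12%) were higher and 34 (2.28%) lower.

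tRNA families leaned upward as a class. Of 56 tested, 50 had positive values, as did 924 of all 1492 families. The median was 0.58, against 0.06 for all families and 0.02 for tRNA families in the Control line. At an unadjusted p under 0.05, 28 of the 56 were higher, as were 9.12% of all families. That number was 14 without 3 h replicate 1. As shares of all gene and repeat counts, tRNA repeats took 0.0301% on average at the end of induction and 0.0364% at 3 h (two-sided exact permutation test, p = 0.4). tRNA-Gln-CAG moved from 97.4, 64.1 and 74.7 uninduced through 225, 128 and 172 to 686, 309 and 483 (log2 fold change 1.47 ± 0.39 (SE), adjusted p = 0.0951), and tRNA-Thr-ACY from 149, 77.9 and 94.9 to 300.3, 204 and 236 (log2 fold change 1.22 ± 0.30 (SE), adjusted p = 0.0761). Neither passed the adjusted threshold, though the groups did not overlap. The median stayed between 0.47 and 0.69 under every scaling and with each library left out. Copies of a tRNA family are nearly identical, so its counts depend on how reads with several matches were shared out.

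The dominant interspersed families did not pass the test. IAPEz-int, the internal part of the intracisternal A particle, was at 57107, 54473 and 74372 induced and 83147, 82305 and 74255 at 3 h (log2 fold change 0.38 ± 0.12 (SE), adjusted p = 0.131), and L1Md_A, a young LINE-1 family, at 47027, 39400 and 64625 and 62949.9, 59769 and 48796 (log2 fold change 0.20 ± 0.13 (SE), adjusted p = 0.582). The groups overlapped in both. Repeats together took 20.5% ± 1.66 of all counts at the end of induction and 20.6% ± 2.62 at 3 h (SD, n = 3), a difference of 0.103 percentage points (two-sided exact permutation test, p = 0.8, where 3 against 3 cannot go below 0.1). In the Control line the shares were 20.6% ± 1.96 and 19.9% ± 1.25 (exact permutation p = 0.7).

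**Figure D5:**
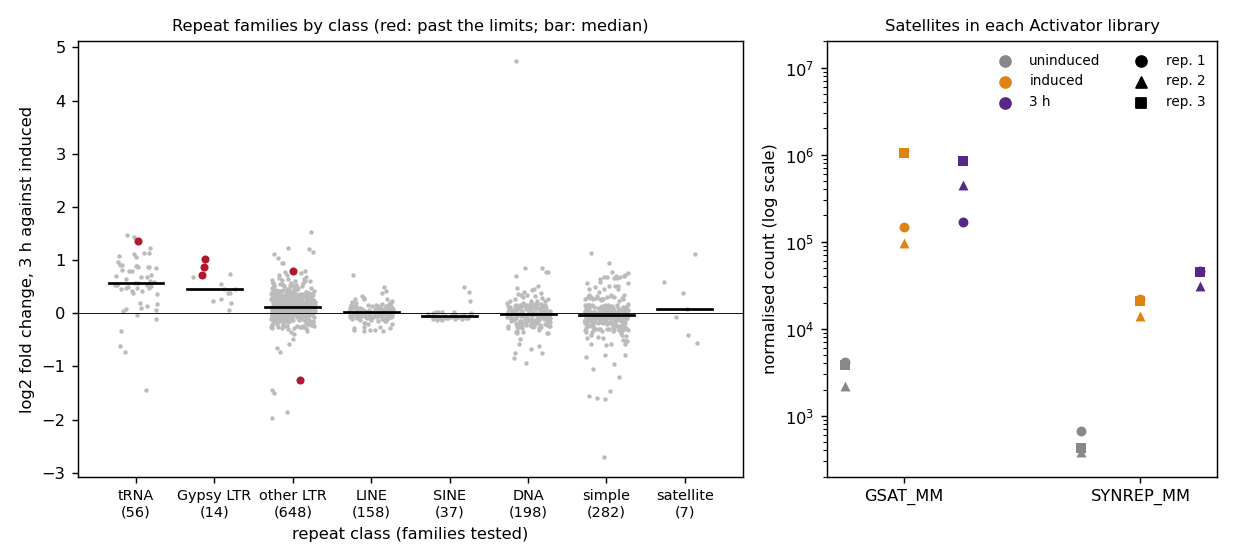
Left, log2 fold change from induced to 3 h (y axis) of each repeat family in the Activator line by class (x axis, number of families tested in parentheses), with the class median as a bar and the 6 called families in red. The tRNA median is 0.58 and the Gypsy median 0.46, while LINE, SINE, DNA and simple repeats centre near 0. Over all LTR families, Gypsy included, the median is 0.13. Right, normalised counts (y axis, log scale) of the major satellite GSAT_MM and the minor satellite SYNREP_MM in each uninduced, induced and 3 h library: GSAT_MM overlaps between induced and 3 h and SYNREP_MM does not.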

How the data were processed

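Total RNA was sequenced from 36 libraries. After trimming by cutadapt, the authors used STAR for alignment to GRCm38 and TEtranscripts to count reads per gene and per repeat family; the deposited values are raw counts. The kit was stranded; the strand setting and the sharing of multiply matching reads in counting are not given in the sources used here. An entry without a name took 0.0021 to 0.0045% of counts and was left out. Of 54842 genes, 54409 matched GENCODE M21, which gave symbols, types and coordinates.

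Counts of all 36 libraries were fitted in R 4.3.3 with edgeR 4.0.16 (robust quasi-likelihood test, TMM from genes for repeats too), with 12 groups and the replicate number as a block, after edgeR's filter on low counts. p-values were adjusted by Benjamini-Hochberg over 28542 genes or 1492 repeat families. Genes were called at an adjusted p under 0.05, a log2 fold change beyond 1 and a mean above 100, and repeats at 0.05 and 0.5. Standard errors were obtained as log2 fold change over √F. DESeq2 1.42.0 was an alternative; the fit was tested on simulated data.

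The numbers pair the samples: deviations from the group means of same-numbered induced and 3 h libraries correlated at 0.801, 0.642 and 0.438 in the Activator line and 0.512, 0.298 and 0.637 in the Control line.

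Named genes were the 10 largest rises and falls among called genes that moved the same way in all pairs, without numbered symbols, the 3 largest of each among numbered symbols, and the most changed called member per list and direction; others are marked. Members and lists were chosen with earlier results of these data known. CG counts used RefSeq promoter windows for GRCm38.p6, with CG searched alone (it reads the same on both strands).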

Additional observations from a re-analysis of the deposited data

Results flagged for a closer look

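The change from induced to 3 h after doxycycline removal differed between the Activator and the Control line, by edgeR's test of the difference, for 18 genes with a higher change in the Activator line and 24 with a lower one. Plekhg4 differed by 2.35 on the log2 scale, Activator minus Control, and Hydin by 4.57. Arsj differed by -1.89 and Sephs2 by -1.27. Tnfaip2 differed by -1.86 and Errfi1 by -1.53, in both through a rise in the Control line. Groups of 3 libraries were too small for a test of single samples that lie far from the rest.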

How the results depend on the processing

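Named genes kept their direction under every alternative run. Of the values of named genes and repeats under alternatives, 406 stayed on their side of an adjusted p of 0.05, 127 no longer passed it and 1 newly did. The alternatives by adjusted p alone and with both libraries numbered 2 left out were chosen after seeing the data. Genes higher and lower in the Activator line, 110 and 63 as reported, were 213 and 721 beyond a log2 fold change of 0.5, 1118 and 221 without the limit on the mean, 319 and 1270 by adjusted p alone, 53 and 60 with both libraries numbered 2 left out, 70 and 9 scaled to mitochondrial mRNAs and 66 and 74 with the 6 libraries alone. Falls numbered 38 with DESeq2 size factors and 41 without the filter on low counts. Leaving out 1 library gave 57 to 164 rises and 12 to 164 falls: 57 and 12 without induced replicate 2, 164 and 119 without induced replicate 3, 85 and 27 without 3 h replicate 1, 87 and 164 without 3 h replicate 2, 112 and 18 without 3 h replicate 3. The cause was not tested.

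Without the replicate block, rises and falls were 54 and 24 in the Activator line, 5 genes rose in the Control line, 3 and 4 genes differed between the lines, and 0 repeat families were called either way.

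In the Control line, 10 higher and 0 lower became 18 and 1 with DESeq2, 6 higher without TMM, 21 and 5 beyond 0.5, 2 lower without the limit on the mean, and 3 to 5 higher with 1 library left out. For the difference between lines, 18 higher and 24 lower became 36 and 77 with DESeq2, 9 and 6 without TMM and 2 and 1 scaled to mitochondrial mRNAs, with 15 lower without the filter, 35 higher without the limit on the mean and 80 lower beyond 0.5. With 1 library left out they ranged from 3 to 16 and from 5 to 20.

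Repeat families, 5 higher and 1 lower, became 3 and 0 with DESeq2 size factors and 16 and 3 without TMM. Higher families were 2 beyond a log2 fold change of 1 and 1 with both libraries numbered 2 left out. Lower ones were 0 with DESeq2, scaled to mitochondrial mRNAs, with the 6 libraries alone and with repeats in the library size. With 1 library left out they ranged from 0 to 59 and from 0 to 5. GSAT_MM changed by -0.18 with both libraries numbered 2 left out and by -0.084 to 1.66 with 1 library left out, the lowest without induced replicate 2. SYNREP_MM changed by 1.12 scaled to mitochondrial mRNAs and by 1.12 with the 6 libraries alone, and passed the threshold in both. The median of all genes moved by less than 0.1 on the log2 scale under every scaling.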
